A study of Mus musculus with 15 samples.

Results

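Complement C1q and the receptors for the Fc part of IgG are the 8 genes described here, measured in mouse liver: C1qa, C1qb and C1qc, which encode the 3 chains of C1q, Tyrobp and Fcer1g, which encode membrane adaptors, and Fcgr3, Fcgr1 and Fcgr2b, which encode Fc receptors. They were chosen by name, 8 of the 18193 genes with a symbol on the array, and every probe set whose only annotated symbol was one of them was kept in view, 15 in all. Liver RNA of 15 mice was hybridised to 1 array each. The series concerns how gut bacteria and Tlr4, the receptor for bacterial lipopolysaccharide, act on liver tumour promotion. Untreated wild-type mice of the C3H/HeOuJ strain gave 3 arrays. The treated wild type (4 arrays) were C3H/HeOuJ mice given the carcinogen diethylnitrosamine (DEN, 100 mg/kg) at 12 weeks of age and, in weeks 13 and 15, the liver toxin carbon tetrachloride (CCl4, doses of 0.50 ml/kg). The treated mutant (4 arrays) were C3H/HeJ mice, labelled Tlr4P712H, given the same agents. The antibiotic group (4 arrays) were C3H/HeOuJ mice that drank ampicillin, neomycin and metronidazole (1 g/l each) with vancomycin (500 mg/l) for 2 weeks from week 10 and then received the same agents. All mice were 15 weeks old at death, and the livers of the 3 treated groups were taken 48 h after the last dose. All were labelled male, except that 1 mutant sample carried no sex. A label that gives other ages and a resection contradicts these and was not used. No untreated mutant mice were arrayed, so what the strain and its mutation set before treatment was not measured, and the mutation and the rest of the C3H/HeJ genome cannot be told apart.

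C1q is the recognition part of the first complement component. It binds antibody in immune complexes and dying cells, and unlike most complement proteins, which hepatocytes secrete, it is made mainly by macrophages and dendritic cells. Fc receptors read the same antibody from the cell surface: the activating receptors encoded by Fcgr1 and Fcgr3 pair with the signalling chain encoded by Fcer1g, whose ITAM motif recruits the kinase Syk, whereas the receptor encoded by Fcgr2b carries an inhibitory ITIM motif. Tyrobp (also DAP12) is the corresponding ITAM chain for receptors such as Trem2. In the liver these genes are known from Kupffer cells, the resident macrophages, and from macrophages that enter as monocytes. Fcgr2b is also known from the liver sinusoidal endothelium, where it clears immune complexes.

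The 3 C1q genes lie next to each other in the order C1qb, C1qc, C1qa on chromosome 4 of the mouse assembly GRCm38.p6, with 0 other annotated genes between their starts. Fcgr2b, Fcgr3 and Fcer1g share a stretch of chromosome 1 that also holds Fcgr4, while Fcgr1 lies on chromosome 3 and Tyrobp on chromosome 7. RefSeq sequence before the start site was at hand for 6 of the 8 genes. It is shown for the 4 in which the searched motif was found, so that its place in each can be seen. Both strands of the 250 bases before the start were searched for GAGGAA, the core bound by the macrophage ETS factor PU.1. Capitals mark the matches, and each sequence runs 5′ to 3′ towards the start site, on GRCm38.p6.

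C1qb, chr4:136886201-136886450, minus strand: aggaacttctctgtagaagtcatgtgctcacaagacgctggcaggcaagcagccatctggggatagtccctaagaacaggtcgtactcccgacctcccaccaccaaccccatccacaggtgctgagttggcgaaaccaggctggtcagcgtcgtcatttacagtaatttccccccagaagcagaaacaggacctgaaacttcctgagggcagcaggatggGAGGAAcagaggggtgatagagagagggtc
C1qc, chr4:136892915-136893164, minus strand: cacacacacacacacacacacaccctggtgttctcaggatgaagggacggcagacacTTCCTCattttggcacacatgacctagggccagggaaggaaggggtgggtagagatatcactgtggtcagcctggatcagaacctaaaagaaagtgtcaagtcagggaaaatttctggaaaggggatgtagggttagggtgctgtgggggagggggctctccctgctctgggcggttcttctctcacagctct
Fcgr3, chr1:171059404-171059653, minus strand: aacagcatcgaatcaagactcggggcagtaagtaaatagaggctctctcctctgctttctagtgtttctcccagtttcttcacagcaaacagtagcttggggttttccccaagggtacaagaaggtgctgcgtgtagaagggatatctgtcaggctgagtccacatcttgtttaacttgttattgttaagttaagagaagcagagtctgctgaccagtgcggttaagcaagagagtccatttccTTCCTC
Fcgr1, chr3:96293970-96294219, minus strand: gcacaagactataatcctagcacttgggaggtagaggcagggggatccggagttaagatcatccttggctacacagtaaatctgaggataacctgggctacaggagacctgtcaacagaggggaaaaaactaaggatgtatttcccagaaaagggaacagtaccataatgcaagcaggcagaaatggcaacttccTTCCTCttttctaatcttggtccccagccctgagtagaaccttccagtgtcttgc

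GAGGAA or its reverse complement TTCCTC was present in 4 of the 6 promoters: 30 to 25 bases before the start of C1qb, 193 to 188 before that of C1qc, 6 to 1 before that of Fcgr3 and 55 to 50 before that of Fcgr1. The same letters are present in 23.1% of the 27025 promoters of this length in the table. The windows of Fcer1g and Fcgr2b did not hold it. These are matches of letters in the reference genome, not measured binding.

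Values are log2 GCRMA summaries as deposited, in which 1 unit is a doubling of signal and values below 4 are taken here as near background. To be tested, a gene needed 3 or more arrays with a value of 4 or above in some probe set, and its brightest probe set on average represented it (9482 genes). All 8 genes entered, through 13 of their 15 probe sets. Probe set 1436625_at of Fcgr1 (2.18 to 3.19) and 1447622_at of Fcgr2b (1.38 to 1.77) never reached 4. A gene is called higher or lower where limma gave a Benjamini-Hochberg adjusted p under 0.05 over all genes tested. Array medians over the tested genes ran from 7.65 to 7.91, and arrays of 1 group correlated at 0.977 to 0.993 over those genes. Tlr4 stayed between 1.81 and 3.67 on all arrays in its 4 probe sets. A point mutation need not alter transcript level, so this checks no label. No source names a batch or says that the mice of a group came from separate cages or litters, so p-values measure the spread between these 15 livers. The labels name whole liver, and in such bulk RNA fewer cells of a type and less RNA per cell cannot be told apart.

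All 8 genes were called higher in treated than in untreated wild type, against 35.9% of all genes tested. Fcgr1 was under 4 on every untreated and mutant array and entered the test through its high groups, so its calls in those comparisons carry no weight as a count. The other 7 were higher by 2.12-fold (Fcgr2b) to 20.8-fold (Tyrobp), with a median log2 difference of 2.97. All 8 were called lower in the treated mutant than in treated wild type, against 17.6% of all genes. The 7 without Fcgr1 were lower by 2.38-fold (Fcgr2b) to 17.9-fold (Tyrobp), with a median log2 difference of -3.11. In the antibiotic group 7 of the 8 were lower than in treated wild type, against 9.01% of all genes. Fcgr1 reached 4 on only 2 antibiotic arrays and passed the filter through treated wild type, so it carries no weight in this count either. Without it, 6 of 7 genes were lower. The genes called lower ranged from 2.12-fold (C1qb) to 4.39-fold (Tyrobp) apart from Fcgr1, which was at least 1.75-fold lower. Fcgr2b was the one not called. Set against the mutant directly, 7 of the 8 were higher in the antibiotic group (6.88% of all genes), and there Fcgr1 was not called. The mutant and antibiotic comparisons share the treated wild-type arrays. For most of these genes the order of group means was treated wild type, then the antibiotic group, then the untreated and mutant groups close to each other, with Fcer1g alone called different between those last 2 groups in the test of the genes.

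How all genes divided depended on the scaling. As deposited, 3408 were higher and 2530 lower with treatment, and 2594 and 3520 once each array was centred on its median, which moved the median of all genes from 0.10 to -0.12. In the mutant comparison 1249 were higher and 1668 lower, but 1852 and 1494 after quantile normalisation, and in the antibiotic comparison 469 and 854, but 768 and 773. Mutant against untreated wild type gave 3095 and 2041 as deposited and 2239 and 2918 centred, and the antibiotic group against untreated wild type 3269 and 2308, and 2511 and 3135. The calls of the 8 genes with treatment, in the mutant and with antibiotics against treated wild type were kept under both scalings.

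**Figure D1:**
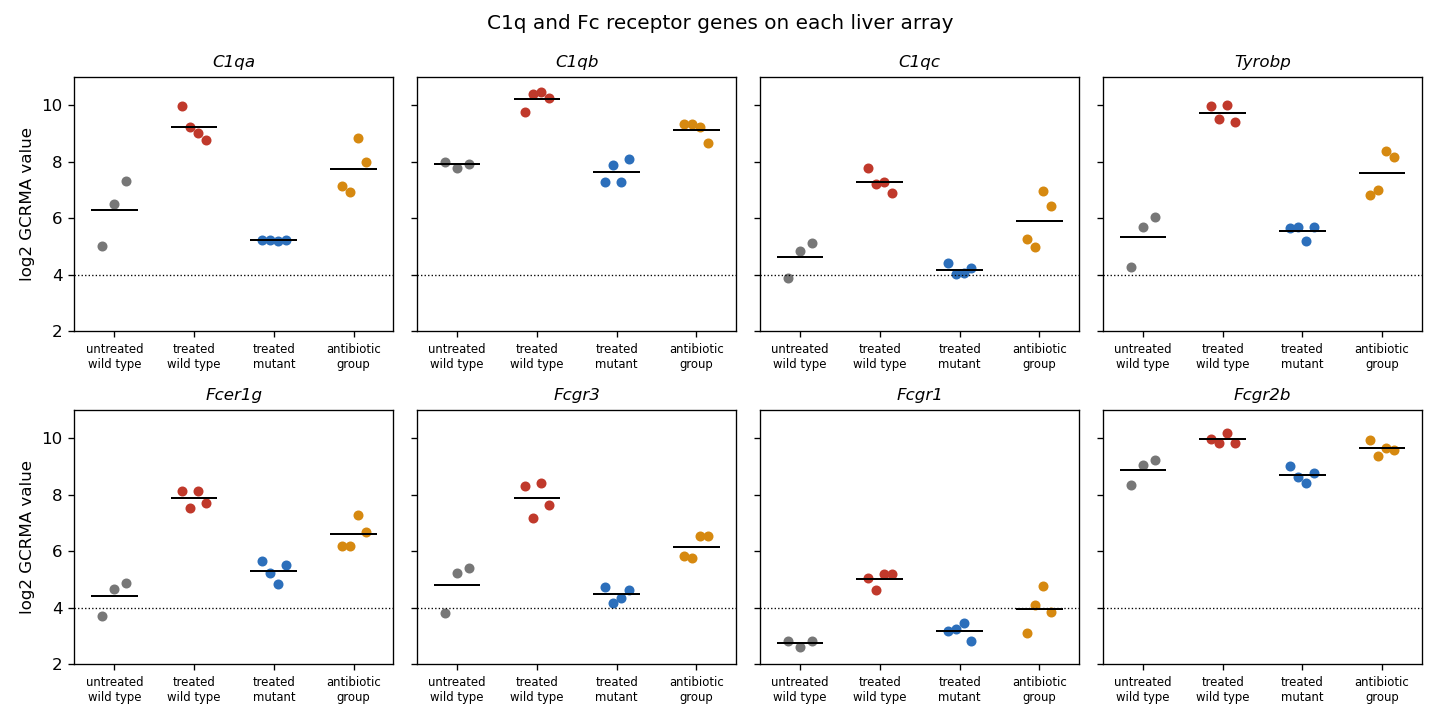
Log2 GCRMA value of the 8 genes (probe set that stands for each) on every array, by group (3 untreated arrays, 4 in each other group). Points are arrays, bars are group means and the dotted line is the value 4. The treated wild-type arrays lie above every untreated and every mutant array in all 8 panels, and the antibiotic arrays lie wholly below treated wild type for 4 of the 8 genes.

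C1qa, the A chain, read 5.02, 6.53 and 7.31 on the untreated arrays and 9.96, 9.24, 9.02 and 8.78 on the treated wild-type ones. The mutant arrays read 5.23, 5.23, 5.20 and 5.25, and the antibiotic arrays 7.16, 6.95, 8.85 and 7.99. The mutant values were nearly identical (SD 0.024). The antibiotic group spread widely, and its replicate 3 overlapped treated wild type. The rise with treatment was 7.81-fold (log2 difference 2.97 ± 0.49 SE, adjusted p = 0.000105), and the mutant lay 16.2-fold below treated wild type (-4.02 ± 0.45, adjusted p = 1.98e-05). The antibiotic group lay 2.85-fold below (-1.51 ± 0.45, adjusted p = 0.0394). That call was lost when any 1 of 7 arrays was left out, with adjusted p values from 0.0523 without treated wild type replicate 4 to 0.111 without antibiotic replicate 1.

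C1qc, the C chain, gave 3.91, 4.84 and 5.15 untreated, 7.78, 7.22, 7.30 and 6.89 in treated wild type, 4.42, 4.04, 4.05 and 4.24 in the mutant, and 5.29, 4.98, 6.97 and 6.45 with antibiotics. Its arrays stood in nearly the same order as those of C1qa: untreated replicate 1 was low, and antibiotic replicate 3 reached into the treated wild-type range. C1qc was at least 6.20-fold higher in treated than in untreated wild type (2.66 ± 0.41, adjusted p = 5.56e-05), where 1 untreated array under 4 was set to 4. It was 8.61-fold lower in the mutant (-3.11 ± 0.38, adjusted p = 3.87e-05). With antibiotics it was 2.59-fold lower (-1.37 ± 0.38, adjusted p = 0.0272), a call lost without any 1 of 5 arrays (adjusted p up to 0.0843 without antibiotic replicate 1).

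C1qb, the B chain, had 3 probe sets above background. The brightest, 1437726_x_at, stood for the gene. It read 8.01, 7.79 and 7.94 untreated, 9.76, 10.40, 10.49 and 10.25 in treated wild type, 7.28, 7.90, 7.27 and 8.10 in the mutant, and 9.35, 9.35, 9.22 and 8.67 with antibiotics. The groups did not overlap, apart from the untreated and mutant arrays. The difference was 2.31 ± 0.23 with treatment (adjusted p = 9.59e-07), -2.59 ± 0.22 in the mutant (adjusted p = 1.65e-06) and -1.08 ± 0.22 with antibiotics (adjusted p = 0.00629), with no call lost in these 3 comparisons when an array was left out.

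The other probe sets of C1qb moved the same way by other amounts. Probe set 1417063_at read 3.20, 4.93 and 5.54 untreated, 8.22, 7.78, 7.70 and 7.004 in treated wild type, 3.27, 2.93, 2.68 and 2.56 in the mutant and 4.77, 4.68, 7.07 and 5.58 with antibiotics. All 4 mutant arrays were under 4, so its fall in the mutant was at least 12.8-fold (fitted difference -4.81 ± 0.52, adjusted p = 1.64e-05). Untreated replicate 1 was low and antibiotic replicate 3 high, as in C1qa and C1qc and unlike in the brightest probe set. Probe set 1434366_x_at ranged from 7.12 to 7.66 untreated, 8.77 to 9.37 in treated wild type, 6.63 to 7.39 in the mutant and 7.84 to 8.38 with antibiotics, and it fell 4.65-fold in the mutant (-2.22 ± 0.20, adjusted p = 3.03e-06). Affymetrix marks with _x_at a probe set that can share probes with other transcripts. Against untreated wild type the mutant was lower by 1417063_at (-1.70 ± 0.56, adjusted p = 0.0203) and by 1434366_x_at (-0.58 ± 0.21, adjusted p = 0.0356), but not called by 1437726_x_at (-0.28 ± 0.23, adjusted p = 0.341). By 1417063_at, with 5 arrays of these 2 groups under 4, the mutant was at least 1.77-fold lower, and the arrays overlapped.

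**Figure D2:**
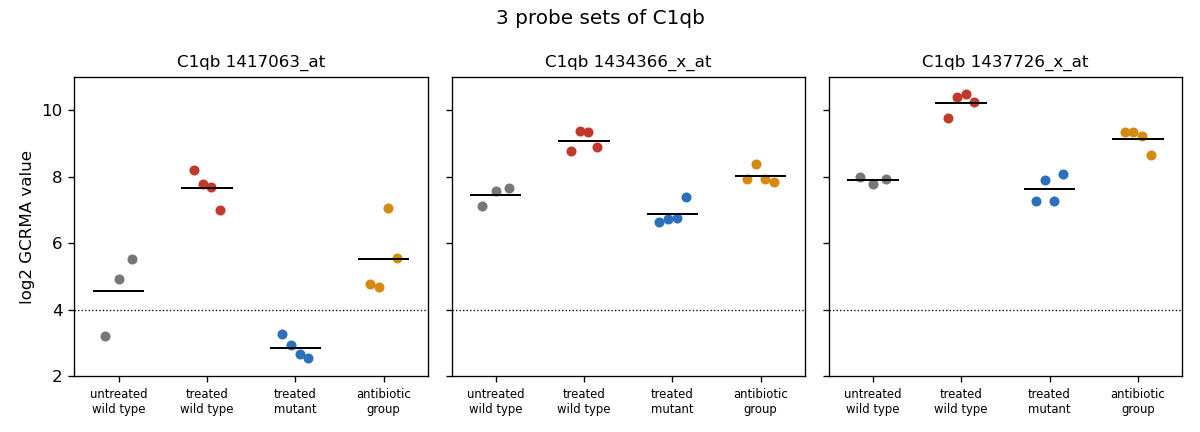
Log2 GCRMA value of the 3 probe sets of C1qb on every array, by group. Points are arrays, bars are group means and the dotted line is the value 4. The mutant mean is lowest in every panel, and the distance between treated wild type and mutant is -4.81 in 1417063_at, -2.22 in 1434366_x_at and -2.59 in 1437726_x_at on the log2 scale.

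Tyrobp and Fcer1g, the adaptors, had 1 probe set each. Tyrobp read 4.30, 5.71 and 6.05 untreated, 9.97, 9.53, 10.01 and 9.40 in treated wild type, 5.67, 5.69, 5.21 and 5.69 in the mutant, and 6.84, 7.01, 8.37 and 8.16 with antibiotics. No antibiotic array reached the treated wild-type range, and none came down to the mutant one. Its treatment difference of 4.38 ± 0.41 (20.8-fold, adjusted p = 4.70e-07) and its mutant difference of -4.16 ± 0.38 (17.9-fold, adjusted p = 2.95e-06) were the largest of the 8 genes by the probe sets that represent them. The antibiotic difference was -2.13 ± 0.38 (4.39-fold, adjusted p = 0.00348).

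Fcer1g, the common gamma chain, read 3.71, 4.66 and 4.90 untreated, 8.16, 7.52, 8.15 and 7.71 in treated wild type, 5.65, 5.24, 4.84 and 5.52 in the mutant, and 6.20, 6.20, 7.29 and 6.70 with antibiotics. The mutant arrays here lay mostly above the untreated ones, with 1 of the 4 within their range. The rise with treatment was at least 10.3-fold (3.46 ± 0.31, adjusted p = 3.26e-07). The mutant was 5.96-fold lower than treated wild type (-2.58 ± 0.29, adjusted p = 1.98e-05) and the antibiotic group 2.44-fold lower (-1.29 ± 0.29, adjusted p = 0.0110). Fcer1g was also higher in the mutant than in untreated wild type (0.89 ± 0.31, adjusted p = 0.0269; 32.6% of all genes were called higher there and 21.5% lower). That call was lost with arrays centred on their medians (0.71, adjusted p = 0.0668), after quantile normalisation (0.51, adjusted p = 0.166) and without untreated replicate 1 (0.53, adjusted p = 0.164), mutant replicate 1 (0.77, adjusted p = 0.0676) or mutant replicate 4 (0.82, adjusted p = 0.0626).

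Fcgr3, an activating receptor of low affinity for IgG, read 3.83, 5.23 and 5.43 untreated, 8.31, 7.18, 8.41 and 7.65 in treated wild type, 4.73, 4.18, 4.35 and 4.65 in the mutant, and 5.84, 5.77, 6.54 and 6.55 with antibiotics. Treated wild type stood apart from every other group, and the antibiotic arrays also stood above all untreated and mutant ones. It was at least 8.01-fold higher with treatment (3.06 ± 0.37, adjusted p = 6.05e-06), 10.7-fold lower in the mutant (-3.41 ± 0.35, adjusted p = 7.70e-06) and 3.28-fold lower with antibiotics (-1.71 ± 0.35, adjusted p = 0.00648).

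Fcgr1, the receptor of high affinity for IgG, lay close to background. Probe set 1417876_at read 2.82, 2.60 and 2.84 untreated and 3.19, 3.27, 3.48 and 2.84 in the mutant, all under 4, and 5.06, 4.64, 5.22 and 5.21 in treated wild type. The antibiotic arrays read 3.11, 4.11, 4.78 and 3.84 and spanned the value 4. It passed the filter through the treated groups, so its difference from the dim groups is given as a bound: at least 2.04-fold higher in treated wild type than in the untreated group (fitted difference 2.28 ± 0.29, adjusted p = 8.67e-06) and at least 2.04-fold higher than in the mutant (-1.84 ± 0.27, adjusted p = 0.000167). With antibiotics it was at least 1.75-fold lower than in treated wild type (-1.07 ± 0.27, adjusted p = 0.0171). The antibiotic and mutant groups did not differ beyond the threshold (0.77 ± 0.27, adjusted p = 0.0756), with 2 of the 4 antibiotic arrays at or above 4 and 0 of the 4 mutant arrays.

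Fcgr2b, the inhibitory receptor, had 4 probe sets above background, with the same calls in the 3 comparisons with treatment, in the mutant and with antibiotics. The one that stood for it, 1435477_s_at, read 8.35, 9.06 and 9.23 untreated, 9.96, 9.85, 10.19 and 9.85 in treated wild type, 9.03, 8.63, 8.41 and 8.77 in the mutant, and 9.96, 9.38, 9.65 and 9.60 with antibiotics. Here the antibiotic arrays overlapped treated wild type and stood above every untreated and mutant array. The difference was 1.08 ± 0.20 with treatment (2.12-fold, adjusted p = 0.000325) and -1.25 ± 0.19 in the mutant (2.38-fold, adjusted p = 0.000214). With antibiotics it was -0.32 ± 0.19 (adjusted p = 0.291), which does not show that the 2 groups are alike. The other 3 probe sets gave treatment differences of 1.23 ± 0.26 (1435476_a_at), 1.91 ± 0.43 (1451941_a_at) and 1.12 ± 0.23 (1455332_x_at). Their mutant differences were -1.65 ± 0.24, -2.31 ± 0.39 and -1.57 ± 0.21, and their antibiotic differences -0.28 ± 0.24, -0.41 ± 0.39 and -0.33 ± 0.21. None of the 4 was called in the antibiotic comparison (adjusted p = 0.299 to 0.541), and all 4 were called in the other 2 comparisons. They differed in brightness: in treated wild type 1435477_s_at averaged 9.96, and the other 3 averaged 7.09, 7.80 and 7.33. Probe set 1455332_x_at carries the _x_at mark. Whether any of the 4, the representative 1435477_s_at included, reads Fcgr2b alone was not tested.

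Tested probe set by probe set, all 13 were higher with treatment (34.2% of all 15541 probe sets kept) and all 13 lower in the mutant (16.1%). Fcgr1 probe set 1417876_at, under 4 on every untreated and mutant array, was kept through its high groups and carries no weight in either count. With antibiotics 9 of the 13 were lower (7.86%), the 4 of Fcgr2b not being called. The Fcgr1 probe set, kept through treated wild type, carries no weight in that count either. Against the mutant, 12 of the 13 were higher with antibiotics (5.62%). C1qb probe set 1417063_at, under 4 on every mutant array, was kept through the other groups and carries no weight in the counts that involve the mutant. Counted by arrays, the treated wild-type values of all 8 genes lay above every untreated value (37.5% of all genes had no overlap in that direction). They also lay above every mutant value for all 8, against 17.6% of all genes. Fcgr1, tested only because of its high groups, again carries no weight in either count. By the probe sets that represent the genes, the antibiotic values of 4 (C1qb, Tyrobp, Fcer1g and Fcgr3) lay wholly below treated wild type (11.6% of all genes). Those of 7 genes lay wholly above the mutant (8.42%). C1qb probe set 1417063_at did overlap treated wild type, with antibiotic replicate 3 at 7.07 and treated wild type replicate 4 at 7.004.

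**Figure D3:**
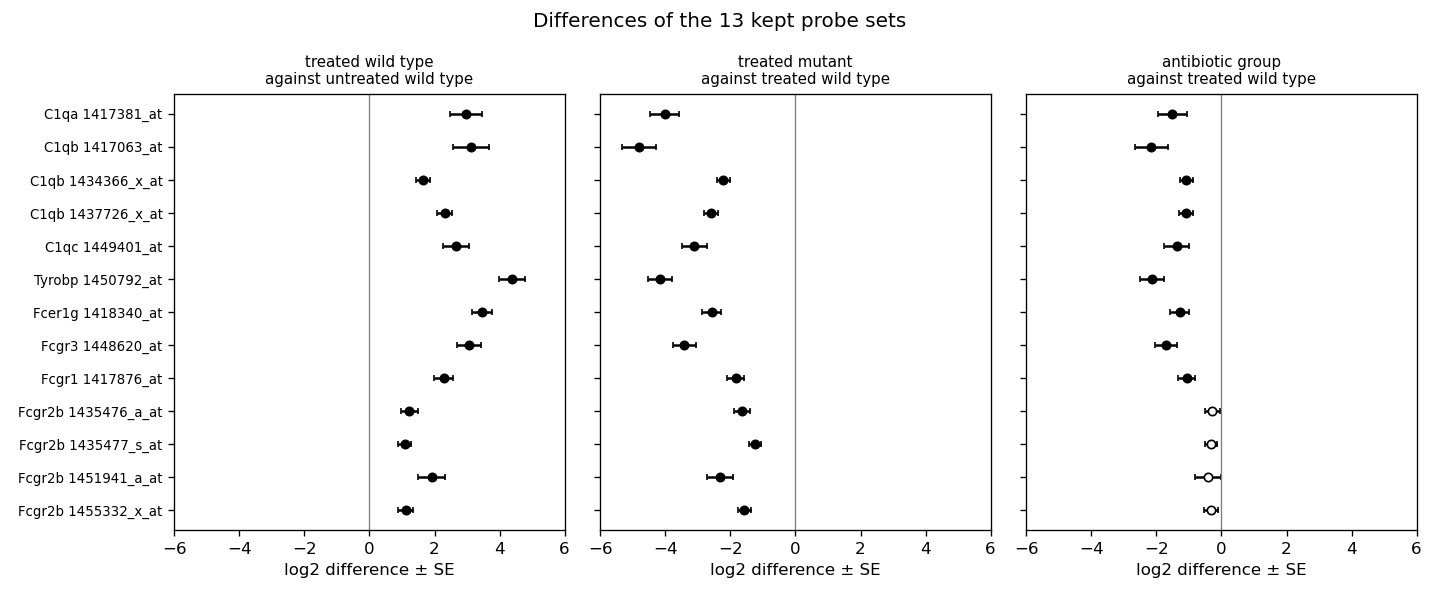
Log2 difference ± SE of the 13 kept probe sets in the 3 comparisons named above each panel. Filled points passed an adjusted p of 0.05 over 15541 probe sets and open points did not. All 13 lie to the right of 0 with treatment and to the left in the mutant, and in the antibiotic panel the 4 open points are those of Fcgr2b.

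Fcgr3 and Fcgr2b encode receptors of opposite sign that bind the same immune complexes, so their log2 values were subtracted within each array. A difference between 2 probes has no meaning as a level, and only its change between groups is read. Fcgr3 minus Fcgr2b was -4.53, -3.83 and -3.80 untreated, -1.66, -2.67, -1.78 and -2.20 in treated wild type, -4.30, -4.45, -4.07 and -4.13 in the mutant, and -4.12, -3.61, -3.11 and -3.05 with antibiotics. All treated wild-type arrays lay above all arrays of the other 3 groups. Group means ± SD were -4.06 ± 0.41 (n = 3), -2.08 ± 0.46 (n = 4), -4.24 ± 0.18 (n = 4) and -3.47 ± 0.50 (n = 4).

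The change was 1.98 with treatment (exact permutation test, two-sided p = 0.0571, the smallest that 3 against 4 arrays allow). It was -2.16 in the mutant (4.47-fold) and -1.40 with antibiotics (2.63-fold), each with p = 0.0286 by the exact permutation test, the smallest that 4 against 4 arrays allow. After adjustment over the 6 comparisons these 3 values were 0.0857, so none passed. The antibiotic group lay 0.76 above the mutant (exact permutation p = 0.0571, adjusted 0.0857) with overlap. With Fcgr2b probe set 1451941_a_at the changes were 1.15, -1.10 and -1.30 in the same order, and for the mutant the arrays then overlapped. The difference between the antibiotic and mutant groups turned from 0.76 to -0.20 with that probe set (exact permutation p = 0.286).

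**Figure D4:**
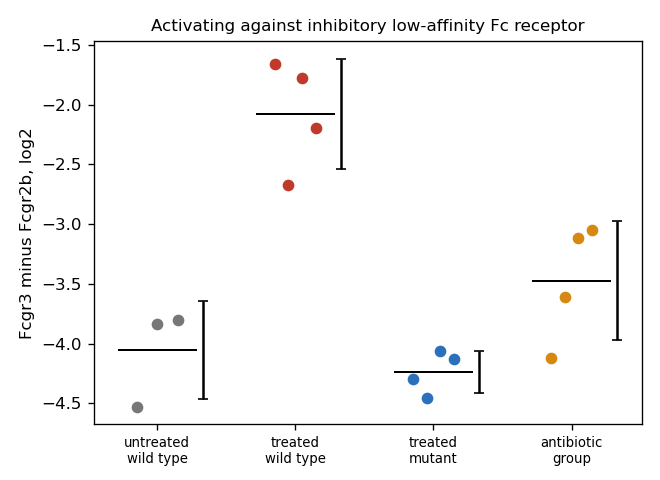
Fcgr3 minus Fcgr2b (log2, same array) by group. Points are arrays, horizontal bars are means and the error bar beside them is 1 SD (n = 3 untreated, n = 4 otherwise). The treated wild-type arrays lie between -2.67 and -1.66, above all others, the antibiotic arrays between -4.12 and -3.05.

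Against untreated wild type, the treated mutant was called for 1 of the 8 genes, Fcer1g. C1qa differed by -1.06 ± 0.49 (adjusted p = 0.0811), C1qc by -0.44 ± 0.41 (adjusted p = 0.375), Tyrobp by 0.21 ± 0.41 (adjusted p = 0.674) and Fcgr3 by -0.35 ± 0.37 (adjusted p = 0.440). Among the probe sets that represent the 8 genes, the SD of the untreated arrays reached 1.17 (C1qa). C1qa passed as lower in the mutant once arrays were centred on their medians (-1.24, adjusted p = 0.0439), quantile normalised (-1.32, adjusted p = 0.0289) or untreated replicate 1 was left out (-1.69, adjusted p = 0.00658). Fcgr3 also passed as lower without that array (-0.85, adjusted p = 0.0453). All 8 genes, by the probe sets that represent them, were higher in the antibiotic group than in untreated wild type (34.5% of all genes). They ran from 0.77 ± 0.20 for Fcgr2b to 2.24 ± 0.41 for Tyrobp. C1qb probe set 1417063_at was not called there (0.96 ± 0.56, adjusted p = 0.156) and its arrays overlapped, while 1434366_x_at was called (0.56 ± 0.21, adjusted p = 0.0360). Without untreated replicate 1, C1qa (0.82, adjusted p = 0.134) and C1qc (0.93, adjusted p = 0.0867) no longer passed there. Fcgr1, under 4 on every untreated array, was at least 1.17-fold higher and carries no weight in that count. Its call was lost with values under 4 set to 4 (0.22, adjusted p = 0.303). After quantile normalisation the calls of Fcgr1 (0.44, adjusted p = 0.193) and C1qc (0.87, adjusted p = 0.0796) were lost.

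The same arrays were low or high for most of the genes. Untreated replicate 1 was the lowest of its group for 11 of the 13 probe sets and replicate 3 the highest for 12. In the antibiotic group, replicates 1 and 2 were lowest for 5 and 7 probe sets, and replicate 3 was highest for 8. A measure of RNA integrity moved with this. The signal of control probes at the 3′ end of Gapdh minus that at its 5′ end, which grows as RNA or its copies shorten, was 1.80, 1.16, 0.313 and 0.351 on the antibiotic arrays 1 to 4, and that of Actb was 3.45, 2.71, 1.82 and 2.05. By group, the Gapdh value ran from 1.42 to 1.60 untreated, 0.857 to 1.15 in treated wild type and 1.40 to 1.86 in the mutant, and the Actb value from 3.63 to 3.996, 2.25 to 2.76 and 3.07 to 3.71.

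The 3′ minus 5′ values of the untreated and mutant arrays thus lay above those of treated wild type, with the genes lower, while the antibiotic arrays ranged on both sides of treated wild type. With either control as a covariate, chosen after the data were seen, all 8 genes stayed called in the treatment and mutant comparisons, and the 7 in the antibiotic comparison with treated wild type. In the treatment and mutant comparisons the groups did not overlap in either control. These fits therefore cannot tell RNA integrity from group there. Against the mutant, 5 of the 7 antibiotic calls were lost with Gapdh (Tyrobp 1.34, adjusted p = 0.0857) and 6 with Actb. Against untreated wild type, 3 of 8 antibiotic calls were lost with Gapdh and 6 with Actb, where C1qc fell to -0.0059.

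C1q acts through the proteases C1r and C1s, and the list of C1 partners and classical pathway components did not follow it. Of 13 such genes tested, 10 were lower and 1 higher with treatment in wild type (26.7% of all genes were called lower), with a median log2 difference of -0.83 beside 0.10 over all genes. In the mutant 0 were lower and 2 higher (13.2% of all genes were higher; median 0.17 beside 0.02), and with antibiotics 0 of the 13 were called. The 2 were properdin (Cfp, 0.85 ± 0.28, adjusted p = 0.0302), which stabilises the alternative pathway convertase, and Masp1 (0.37 ± 0.11, adjusted p = 0.0197), a lectin pathway protease. C1ra, singled out after its values were seen, went from 11.4 to 10.0 with treatment (-1.35 ± 0.16, adjusted p = 3.80e-06) and differed by 0.20 ± 0.15 in the mutant (adjusted p = 0.332). C1s1, chosen likewise, fell by 0.83 with treatment (adjusted p = 2.74e-05) and differed by -0.02 ± 0.11 in the mutant (adjusted p = 0.912).

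The shares of all genes given above, 35.9% higher and 26.7% lower with treatment, 13.2% and 17.6% in the mutant and 4.95% and 9.01% with antibiotics, also stand beside the counts that follow. Of 7 receptors for C1q and for fragments of C3 tested, 4 were higher and 1 lower with treatment (median 1.89), with 2 not called. In turn 4 were lower and 3 not called in the mutant (median -2.64), and 4 were lower and 3 not called with antibiotics (median -0.95, beside -0.03 over all genes). Vsig4, a receptor of Kupffer cells for C3b, averaged 7.46 ± 1.31 (SD, n = 3) untreated, 9.36 ± 0.46 (n = 4) in treated wild type, 3.77 ± 0.23 (n = 4) in the mutant and 6.89 ± 0.70 (n = 4) with antibiotics. The mutant mean was thus below the untreated one and close to background. C3ar1, the receptor for C3a, was under 4 on all untreated and mutant arrays and averaged 6.99 ± 0.69 (SD, n = 4) in treated wild type, which was at least 7.97-fold above either group (adjusted p = 1.86e-07 and 7.20e-06). Itgb2, the beta chain of complement receptor 3, was at least 9.95-fold higher with treatment, with 2 untreated arrays under 4, and lower in the mutant (-2.71 ± 0.22) and with antibiotics (-1.58 ± 0.22).

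Of the other Fc receptors 3 were tested. All 3 were lower with treatment: Fcgrt, the neonatal receptor that recycles IgG (-1.26 ± 0.25, adjusted p = 0.000537), Pigr, which carries polymeric immunoglobulin into bile (-1.03 ± 0.12, adjusted p = 4.06e-06), and Trim21, a cytosolic Fc receptor (-1.03 ± 0.13, adjusted p = 9.75e-06). These 3 are named after their values were seen. In the mutant 0 of the 3 were called. Fcgrt was higher with antibiotics (0.84 ± 0.23, adjusted p = 0.0287; 4.95% of all genes were called higher).

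The list drawn up for receptors that signal through Tyrobp or Fcer1g was mostly under background, with 6 of 26 on the array tested. All 6 were called higher with treatment, 5 lower in the mutant and 4 lower with antibiotics. Of the 6, 5 were under 4 on every untreated array and 4 on every mutant array and entered through treated wild type, so the counts describe these genes and support nothing. Csf1r, the receptor for the macrophage growth factor CSF1, averaged 8.94 ± 0.54 untreated (SD, n = 3), 10.47 ± 0.31 in treated wild type, 7.66 ± 0.09 in the mutant and 9.57 ± 0.25 with antibiotics (n = 4 each). Clec4a2, a lectin receptor, was placed in this list but carries an inhibitory ITIM motif of its own. Clec4a2 and the lectin receptor Clec4n were under 4 on all untreated and mutant arrays. They were at least 2.51-fold and at least 1.46-fold higher in treated wild type than in either group.

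Of 15 kinases, adaptors and phosphatases downstream of the ITAM and ITIM motifs, 10 were higher and 5 lower with treatment (median 0.72), 6 were lower in the mutant (median -0.21) and 2 with antibiotics (median -0.15). Of the 15, 4 were under 4 on all untreated arrays and 3 on all mutant arrays. Lcp2 (SLP-76), an adaptor, was under 4 on all mutant arrays and 5.11 ± 0.29 (SD, n = 4) in treated wild type, a difference of at least 2.16-fold (adjusted p = 7.86e-07). Ptpn6 (SHP-1), a phosphatase recruited by ITIM motifs, fell by 1.28 in the mutant (adjusted p = 2.08e-05) and differed by -0.44 ± 0.15 with antibiotics (adjusted p = 0.0580). Fyn, a Src family kinase, was at least 2.01-fold lower in the mutant (adjusted p = 0.000742) and differed by -0.42 ± 0.21 with antibiotics (adjusted p = 0.201).

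Markers of the cells that can carry these genes were counted in the same way. Of 16 Kupffer cell genes tested, 12 were higher and 1 lower with treatment (median 1.54), 12 lower in the mutant (median -2.55), and 10 lower and 1 higher with antibiotics (median -1.005). Their summed level, on a log2 scale, was 12.11 to 12.69 untreated, 12.88 to 13.29 in treated wild type, 12.01 to 12.16 in the mutant and 12.26 to 12.95 with antibiotics, and Folr2, Spic and Timd4 never reached 4. Within the 16 tested, 3 were under 4 on every untreated array and 2 on every mutant array. Such genes entered through the other groups and add no weight to the counts against the dim group. The list's most abundant genes were Slc40a1, the iron exporter, and Id3, both also made by other liver cells, together with Csf1r above. Slc40a1 and Id3 did not follow the list in the mutant (differences of 0.02 each, not called). With treatment Id3 was higher (1.43 ± 0.27) and Slc40a1 lower (-0.61 ± 0.11). With antibiotics Slc40a1 was lower (-0.36 ± 0.10) and Id3 was not called. Other defining genes of phagocytes are added here after their values were seen. Clec4f averaged 6.67 untreated, 7.23 in treated wild type and 3.13 in the mutant, and Cd163 averaged 6.80, 7.31 and 3.21. Neither was called with treatment, and both were lower in the mutant than in untreated wild type, by at least 6.36-fold and at least 6.61-fold (adjusted p = 2.21e-05 and 3.65e-06), which was called for none of the 8 genes by the probe sets that represent them. The macrophage surface protein Adgre1 averaged 4.60, 7.30 and 3.84 in the same groups. Cd68, a lysosomal protein of phagocytes, averaged 2.86 ± 0.24 untreated (SD, n = 3), 9.29 ± 0.32 in treated wild type, 9.32 ± 0.41 in the mutant and 10.15 ± 0.63 with antibiotics (n = 4 each). It was at least 39.2-fold higher with treatment and was not called lower in the mutant (0.02 ± 0.28, adjusted p = 0.959).

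Of 13 genes of monocyte-derived macrophages, 10 were higher and 1 lower with treatment (median 3.24), 9 lower and 1 higher in the mutant (median -1.70) and 6 lower with antibiotics (median -1.07). Their summed level ran from 14.15 to 14.19 untreated, 14.58 to 14.87 in treated wild type, 14.36 to 14.59 in the mutant and 14.42 to 14.84 with antibiotics. It is carried by Fn1, Fabp5 and F10, which hepatocytes also express, and Itgam, Ms4a7 and Trem2 never reached 4. Within the 13 tested, 4 were under 4 on every untreated array and 3 on every mutant array, with the same limit on the counts.

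Of 16 genes of the sinusoidal endothelium tested, 7 were higher with treatment (median 0.53) and all 16 lower in the mutant (median -0.96), but 1 was lower with antibiotics (median -0.02). A difference from the other lists was not tested. Its summed level was 10.98 to 11.75 untreated, 11.84 to 12.07 in treated wild type, 10.89 to 11.18 in the mutant and 11.73 to 12.10 with antibiotics. Pecam1 and Tie1 of this list never reached 4, and 1 of its 16 tested genes was under 4 on every untreated and every mutant array. Its most abundant genes were Clec4g (-0.75 in the mutant, -0.01 with antibiotics), Ptprb (-0.84 and -0.17) and Bmp2 (-0.90 and -0.05), all 3 lower in the mutant and not called with antibiotics. Fcgr2b was also lower in the mutant and not called with antibiotics. The part of either cell type in its values was not tested.

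Stellate cell genes rose in 11 of 11 cases with treatment (median 1.97), and 11 were lower in the mutant (median -1.99) and 5 with antibiotics (median -0.54). The list had summed levels of 11.10 to 12.26 untreated, 13.88 to 14.10 in treated wild type, 12.11 to 12.56 in the mutant and 13.28 to 13.76 with antibiotics. The most abundant were Dcn, Reln and Col3a1, all 3 lower in the mutant, and Des never reached 4. Within the 11 tested stellate cell genes, 1 was under 4 on every untreated array. Of 9 hepatocyte genes 2 were lower with treatment (median -0.11) and 0 were called in the mutant or with antibiotics, Ttr, Alb and Apoa1 among them. Their summed level stayed between 17.14 and 17.37 on all arrays.

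Markers of other leucocytes that carry Fc receptors were mostly under 4. Of 13 NK and T cell genes 0 reached 4 on any array. Of 11 neutrophil genes 9 never did, and the other 2, S100a8 (5.84 in treated wild type, 3.39 in the mutant) and S100a9 (4.60 and 3.31), were called higher with treatment and lower in the mutant and with antibiotics. Both were under 4 on all untreated arrays, and their folds with treatment were at least 3.58 and at least 1.55. Of 9 mast cell and basophil genes 8 never reached 4, Fcer1a and Ms4a2 among them, and Kit, under 4 on all untreated and mutant arrays, averaged 4.52 in treated wild type, at least 1.43-fold above either. Of 10 B cell genes 7 never did. Of the tested 2, Ighm was well above background untreated (8.46) and fell to 4.05 with treatment, and Bank1 was at least 1.55-fold higher with treatment, from under 4 on all untreated arrays. Of 10 dendritic cell genes 8 never reached 4. Bst2, which other cells also express, was bright in every group (10.67 untreated), rose by 1.02 with treatment and was lower with antibiotics (-0.50), and Zbtb46 was not called in these 3 comparisons.

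**Figure D5:**
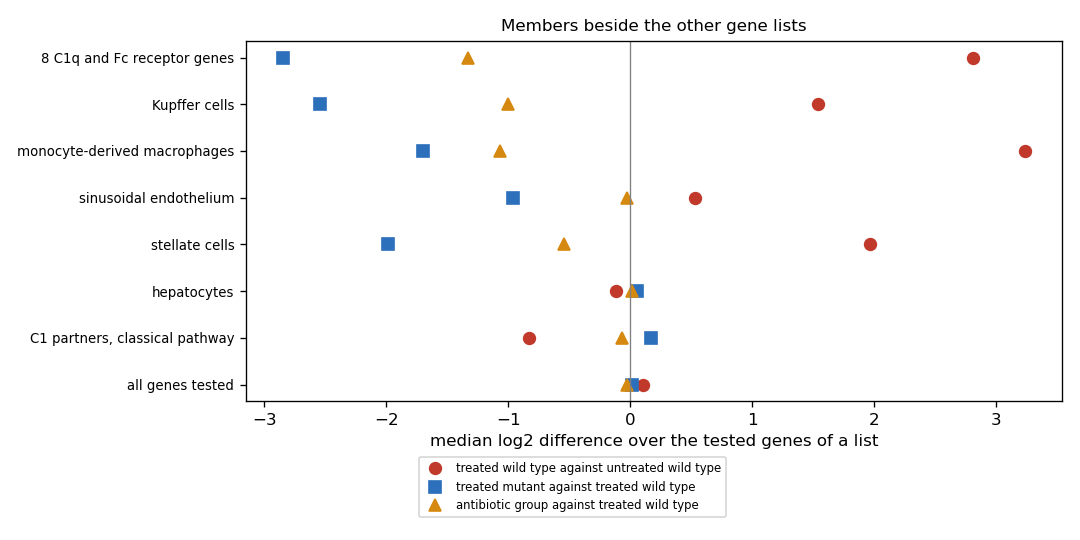
Median log2 difference over the tested genes of each list, in 3 comparisons, beside the median of the 8 genes and of all 9482 genes tested. The medians of the 8 genes, the dim Fcgr1 included, are 2.81, -2.85 and -1.33. Those of the hepatocyte genes are -0.11, 0.06 and 0.02.

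The genes whose levels over the 15 arrays were most like the mean of C1qa, C1qb and C1qc were Fabp7 (r = 0.974), Igfbp7 (0.971), She (0.971), Clec4a3 (0.968) and Tm6sf1 (0.967). Those most like the mean of Tyrobp, Fcer1g, Fcgr3 and Fcgr1 were Dab2 (0.994), Aif1 (0.988), Cd53 (0.987), Fyb (0.985) and Col6a3 (0.984). Fcgr2b was most like Pdgfra (0.963), Ctla2b (0.959) and Cdh5 (0.953). These correlations describe 15 arrays that share 4 group means and the RNA measures above. Fabp7, a fatty acid binding protein, averaged 4.16 ± 0.95 (SD, n = 3) untreated, 7.89 ± 0.29 in treated wild type, 4.08 ± 0.44 in the mutant and 6.10 ± 0.54 with antibiotics (n = 4 each). Dab2, an endocytic adaptor, averaged 5.37 ± 0.45, 8.50 ± 0.16, 5.75 ± 0.26 and 7.15 ± 0.45 in the same groups. Cdh5, the endothelial cadherin, averaged 5.19 ± 0.43, 6.28 ± 0.23, 5.16 ± 0.02 and 5.98 ± 0.14. Having been picked for their correlation, these genes share the order of the groups by choice.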

How the data were processed

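Liver RNA of 15 mice was measured on 1 Affymetrix mouse array each. The authors deposited log2 values per probe set, made with GCRMA per the submitters' processing notes, whose version and settings are not given in the sources used here. They were tested as deposited, with 0 columns left unused. Probe sets were named through the platform annotation and the RefSeq gene table of GRCm38.p6 (34945 with 1 symbol, 932 with several, 9160 with none). The 4 group means were fitted with limma 3.58.1 in R 4.3.3 to all 15 arrays (11 residual degrees of freedom), and each of 6 comparisons was called at a Benjamini-Hochberg adjusted p under 0.05 over 9482 genes, or over 15541 probe sets where stated. The number of arrays limits the precision. Folds against a group with arrays under 4 were computed with those arrays raised to 4 and read as lower bounds. The fit was tested on simulated data. Scaling, floor, filter, probe set choice, samples fitted, prior and single arrays were varied.

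The 8 genes, the 5 pathway lists and the 10 cell type lists were chosen with earlier results of these data known. Besides the 8 genes, the text names the genes most correlated with them, up to 3 called genes per pathway list with the largest difference in the mutant, and the 3 most abundant genes of a cell type list. Python 3.11.15 with pandas 2.3.3 served for tables, matplotlib 3.10.9 for plots.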

Additional observations from a re-analysis of the deposited data

Results flagged for a closer look

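An array far from the other 3 of its group was found in 4 of 42 groups of 4 arrays, for the 13 kept probe sets and Fcgr3 minus Fcgr2b, and chance gives about 1 in 20 such groups. C1qb probe set 1434366_x_at read 7.39 on treated mutant replicate 4, against 6.63 to 6.75 on the other 3 arrays. The same probe set read 8.38 on antibiotic replicate 2, against 7.84 to 7.93. Tyrobp read 5.21 on treated mutant replicate 3, against 5.67 to 5.69. Fcgr2b probe set 1451941_a_at read 7.51 on treated wild type replicate 4, against 7.90 to 7.92. Leaving out these arrays changed no call of the 8 genes with treatment or in the mutant against treated wild type, comparisons without antibiotic arrays. Against treated wild type, the antibiotic calls of C1qa (adjusted p = 0.0862) and C1qc (0.0591) were lost without antibiotic replicate 2. That of C1qa was also lost without treated wild type replicate 4 (0.0523). Without mutant replicate 4, Fcer1g was no longer called against untreated wild type (0.0626).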

How the results depend on the processing

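All 207 refits of the 8 genes in the treatment comparison and all 207 in the mutant comparison kept direction and call. In the antibiotic comparison with treated wild type 15 of 207 lost the call, for C1qa, C1qc and Fcgr1, among them C1qa without a filter on low values (-1.51, adjusted p = 0.0543) and, in a fit of only the 2 groups compared, C1qc (adjusted p = 0.0674) and Fcgr1 (adjusted p = 0.0591). Against the mutant 11 antibiotic calls of 207 were lost, all with the 3′ minus 5′ covariates, and 1 was gained. Against untreated wild type 16 antibiotic calls were lost, and C1qc with the Actb covariate turned to -0.0059; the mutant lost 6 and gained 8, including C1qb with the mean of its probe sets (-0.85, adjusted p = 0.00473). The cause was not tested.

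Counts of genes called moved as follows. With the Gapdh covariate 1917 genes were called in the mutant comparison (2917 without it) and 252 between the antibiotic and mutant groups (1165). With the Actb covariate these were 1562 and 190, and 3264 between the antibiotic group and untreated wild type (5577). With only the 2 groups fitted, 673 genes were called between the antibiotic and mutant groups. With every probe set on its own, more features were tested and 9310 were called with treatment, 4443 in the mutant comparison, 7933 between mutant and untreated and 8705 between antibiotic group and untreated. Leaving out 1 array, the antibiotic comparison with treated wild type called 820 genes (without antibiotic replicate 1) to 1624 (without antibiotic replicate 2), and that with the mutant 723 (without mutant replicate 1) to 1375 (without mutant replicate 3). 

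No paired analysis was possible because the labels number the arrays across the groups, so that no 2 groups share a replicate number. Fcgr1 lies near background in 2 groups, and there its level has only an upper bound.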
